A study of Mus musculus with 8 samples.

Results

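The genes described here make, break down or bind hyaluronan, and were followed in bulge cells of DMBA/TPA-treated mouse skin. They are the hyaluronan synthase genes Has1, Has2 and Has3, the hyaluronidase genes Hyal1 and Hyal2, the receptor gene Cd44 and the hyaluronan-binding proteoglycan gene Vcan. Members were chosen by gene symbol, which gave 7 of 17097 measured genes and 15 of 45141 probe sets, a probe set being the group of array probes that reads a transcript. The choice was made with the genotype difference known, and with Has2 already seen to be lower in G9a cKO. Their differences between genotypes are therefore given as a description, with no test of their own.

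Each array held RNA of bulge cells, the hair follicle region that houses its stem cells, from an animal of 15 weeks of age. The label G9a cKO, which stands for a conditional deletion of G9a, an enzyme that methylates histone H3, marks 4 of the 8 arrays, and the other 4 are labelled G9a WT. Both groups had been treated on the back skin once a week for 6 weeks from an age of 8 weeks. The treatment was the mutagen DMBA (0.25 mg/ml) and the tumour promoter TPA (0.02 mg/ml), 200 µl each. The sources used here do not give the strain, the sex, the promoter that drives the deletion or how the bulge cells were isolated. All values are log2 RMA expression, a scale on which a difference of 1 is a doubling.

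Hyaluronan is a long sugar chain of the matrix between cells. Has enzymes in the plasma membrane extrude it from UDP-sugars, hyaluronidases and other enzymes cut it, and receptors such as CD44 hold it at the cell surface. In skin it fills the space between keratinocytes and the dermal matrix, and its synthesis responds to growth factors and wounding. Proteoglycans such as versican and the heavy chains of inter-alpha-trypsin inhibitor bind the chain and organise it into a cell coat.

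Has2 was the member with the largest difference between genotypes, and Cd44 was slightly lower in cKO on its 4 probe sets. The other 5 members had overlapping groups. In the limma fit across all genes, 2 of the 7 members, Has2 and Cd44, had an adjusted p under 0.05 with cKO lower. The count with cKO higher was 0. Over all genes 0.836% passed with cKO lower and 1.92% with cKO higher, and the groups did not overlap, with cKO lower, in 3.09%. At an unadjusted p under 0.05 the member counts were the same, without a share over all genes beside them, so nothing is read from them. In the fit across all probe sets, 3 of the 15 member probe sets passed with cKO lower, against 0.587% of all probe sets, and 0 with cKO higher, against 1.18%. Groups did not overlap, with cKO lower, in 5 of the 15 member probe sets, against 3.19% of all probe sets. Because the members were chosen on this contrast, nothing is read from these shares. The median log2 difference of the 7 members was -0.13, beside 0.0027 over all genes.

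**Figure D1:**
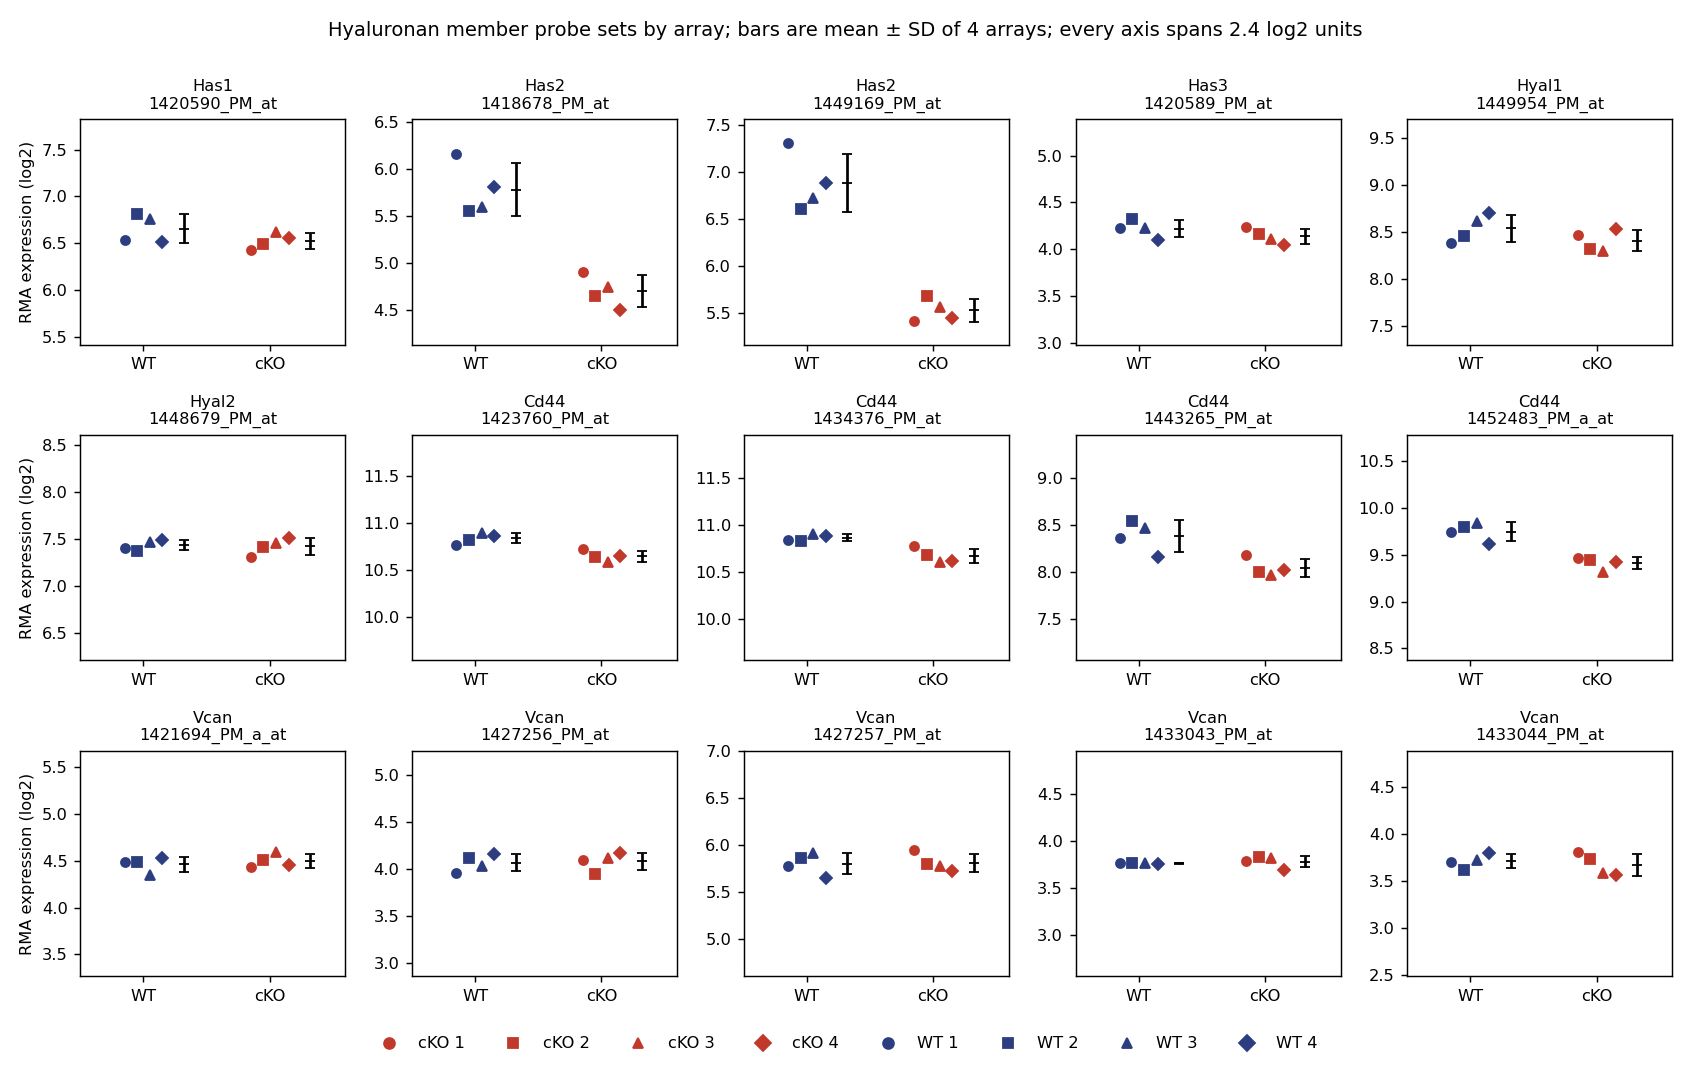
RMA expression (log2) of the 15 member probe sets in each WT (blue) and cKO (red) array, with the mean ± SD of 4 arrays beside each group, on axes of equal span. The 4 cKO arrays lie below the 4 WT arrays in both Has2 probe sets and in 3 of the 4 Cd44 probe sets, and the groups overlap in the other panels.

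Has2 encodes the synthase known to make long hyaluronan chains. Its probe set with the higher mean (1449169_PM_at) read 5.42, 5.68, 5.57 and 5.45 in cKO replicates 1 to 4 and 7.31, 6.61, 6.72 and 6.88 in WT replicates 1 to 4. The groups did not overlap: the lowest WT array lay 0.93 above the highest cKO array, and WT replicate 1 was the highest of all. The means were 5.53 ± 0.12 in cKO and 6.88 ± 0.31 in WT (SD, n = 4 each), a log2 difference of -1.35 (SE 0.13) or 2.56-fold lower in cKO.

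The second Has2 probe set (1418678_PM_at) read 4.90, 4.64, 4.75 and 4.49 in cKO and 6.16, 5.55, 5.60 and 5.81 in WT. The cKO arrays were again all below the WT arrays, by 0.65 at the nearest point, and WT replicate 1 was again the highest. The means were 4.70 ± 0.17 and 5.78 ± 0.28 (SD, n = 4 each), a log2 difference of -1.08 (SE 0.13) or 2.12-fold lower. All 4 cKO values of this probe set lay under 5.23, the level below which the dimmest 40% of probe sets have their mean. Signal and background are hard to separate at such levels.

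Without any one array the log2 difference of the first Has2 probe set stayed between -1.44 and -1.21. Over all 17 alternative settings, which include the mean of both probe sets, that of Has2 stayed in the same range. Has2 was below the adjusted threshold in each of the 17. These settings reuse the arrays on which Has2 had been seen to be lower, so this is a description and no added support.

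Has1, the gene of another synthase, read 6.43, 6.49, 6.62 and 6.56 in cKO and 6.54, 6.82, 6.76 and 6.51 in WT. Only WT replicates 2 and 3 stood above the highest cKO array. The means were 6.53 ± 0.08 and 6.66 ± 0.15 (SD, n = 4 each), with a log2 difference of -0.13 and a 95% interval of -0.31 to 0.05. Has3, whose enzyme is known for shorter chains, was among the dimmest 40% of probe sets and read 4.05 to 4.24 in cKO and 4.10 to 4.32 in WT. Its log2 difference of -0.08 had a 95% interval of -0.20 to 0.04, and a change of Has3 at such a level could be hidden in background.

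RefSeq start site sequence (GRCm38.p6) was held for 5 of the 7 members, Has1, Hyal1, Hyal2, Cd44 and Vcan. The 240 bases from 250 to 11 bases before the start were searched on both strands for an AP-1 site (TGANTCA), a CRE (TGACGTCA), an E-box (CACGTG) and a GC box (GGGCGG). Of 32851 such windows over all genes, 6.58% held the AP-1 letters, 1.44% the CRE, 5.69% the E-box and 31.3% the GC box. Has1 was the only one of the 5 with a CRE, 83 bases before the start, and none of the 5 held the AP-1 or E-box letters in this window. The GC box was in 3 of the 5, at 77 and 72 bases before the start of Hyal1, 47 before that of Hyal2 and 219 before that of Vcan. The stretch is shown with the CRE in capitals (minus strand, chr17:17855254-17855281).
Has1: agacttgtccTGACGTCAgccctcctcc

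Hyal1 and Hyal2 encode the hyaluronidases of most tissues, HYAL2 at the cell surface and HYAL1 in lysosomes. Hyal1 read 8.47, 8.32, 8.30 and 8.53 in cKO and 8.38, 8.46, 8.61 and 8.70 in WT. The groups overlapped, with the highest values in WT replicates 3 and 4. The means were 8.40 ± 0.11 and 8.54 ± 0.14 (SD, n = 4 each), and the log2 difference of -0.13 had a 95% interval of -0.32 to 0.05. Hyal2 read 7.30 to 7.51 in cKO and 7.37 to 7.49 in WT, so the WT range lay within the cKO range. Its log2 difference was -0.01 with a 95% interval of -0.15 to 0.13.

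Cd44 encodes a surface glycoprotein that binds hyaluronan and is spliced into many forms. The probe set with the highest mean (1434376_PM_at) read 10.77, 10.67, 10.60 and 10.62 in cKO and 10.84, 10.82, 10.90 and 10.88 in WT. The groups did not overlap, but cKO replicate 1 lay only 0.05 below the lowest WT array. The means were 10.67 ± 0.08 and 10.86 ± 0.04 (SD, n = 4 each), a log2 difference of -0.19 (SE 0.04) or 1.14-fold lower. A second probe set (1423760_PM_at) differed by the same -0.19, without overlap.

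The third Cd44 probe set (1452483_PM_a_at) read 9.46, 9.44, 9.31 and 9.42 in cKO and 9.74, 9.79, 9.83 and 9.61 in WT. It also separated the groups, by 0.15, with WT replicate 4 nearest to the cKO arrays. Its log2 difference was -0.33 (SE 0.06) or 1.26-fold lower, and it was the Cd44 probe set that passed in the fit across all probe sets, where it kept that call in 2 of the 8 fits without an array (cKO replicate 1 or WT replicate 4). The fourth (1443265_PM_at) differed by -0.34 (SE 0.09), at 8.04 ± 0.09 against 8.38 ± 0.17 (SD, n = 4 each), with WT replicate 4 inside the cKO range. Within arrays, the first probe set exceeded the third by 1.26 ± 0.05 in cKO and 1.12 ± 0.10 in WT (SD, n = 4 each). That excess was 1.26 in WT replicate 4, inside the cKO range of 1.19 to 1.31, and 1.03 to 1.10 in the other WT arrays.

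The Cd44 call rested on small margins. It passed in 1 of the 8 fits without an array, that without cKO replicate 1, while its log2 difference stayed between -0.23 and -0.17 in all 8. Macrophage markers were looked at because leukocytes also carry CD44: 7 of the 8 genes lay below 0 and 7 were among the dimmest 40%. None passed by limma, and 1 was lower at an unadjusted p under 0.05. Their mean level ran from 4.65 to 4.76 in cKO arrays and from 4.69 to 5.02 in WT arrays, with WT replicate 3 highest, and their part in the Cd44 difference was not tested.

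The Cd44 start region is shown because it is the called member with a sequence here (minus strand, chr2:102901676-102901915). It held none of the 4 motifs, so no letters are in capitals, and 55% of its bases were G or C.
Cd44: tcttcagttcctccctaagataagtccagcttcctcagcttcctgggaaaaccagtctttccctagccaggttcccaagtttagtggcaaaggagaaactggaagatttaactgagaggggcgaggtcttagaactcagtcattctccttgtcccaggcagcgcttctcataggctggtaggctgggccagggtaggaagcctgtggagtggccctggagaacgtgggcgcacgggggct

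Vcan encodes versican, a large proteoglycan whose end domain binds hyaluronan. The 5 Vcan probe sets differed by -0.04 to 0.04 on the log2 scale, all with overlapping groups, and 4 of them were among the dimmest 40%. The brightest (1427257_PM_at) read 5.95, 5.79, 5.78 and 5.72 in cKO and 5.77, 5.86, 5.91 and 5.65 in WT. The highest of its 8 arrays was cKO replicate 1 and the lowest WT replicate 4. Its log2 difference of 0.01 had a 95% interval of -0.15 to 0.17, and for the dim probe sets a low level and background cannot be told apart.

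**Figure D2:**
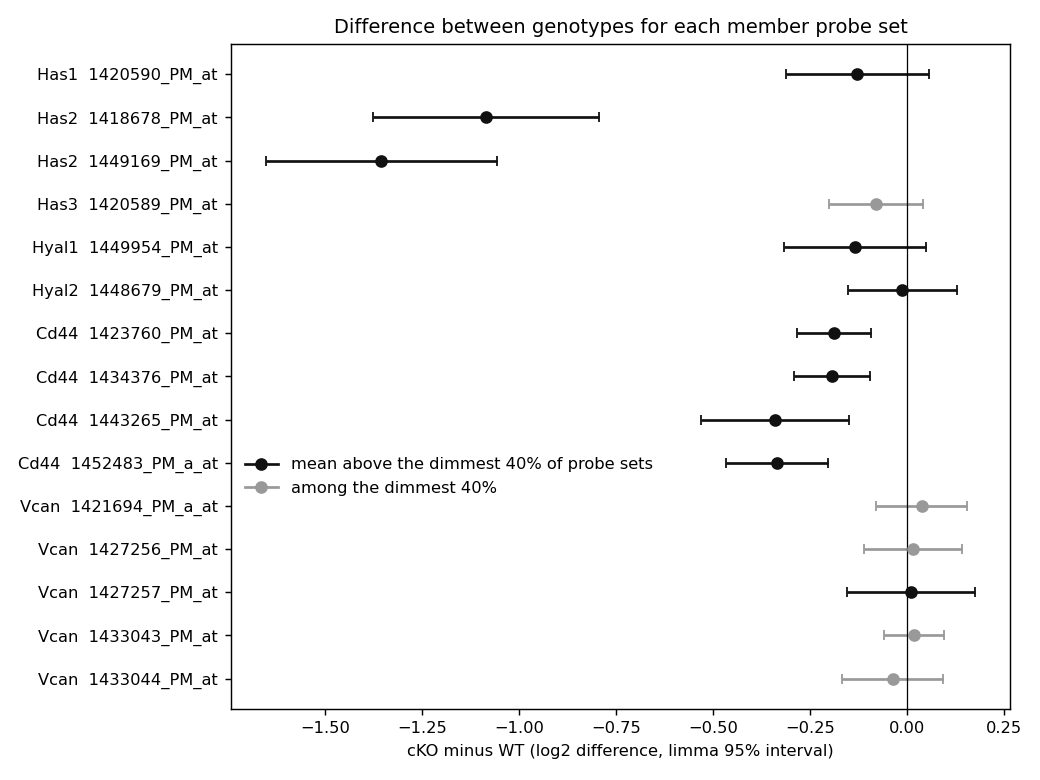
Log2 difference (cKO minus WT) of each member probe set as a point with its limma 95% interval, grey where the probe set is among the dimmest 40%. Both Has2 probe sets lie at -1.35 and -1.08, the 4 Cd44 probe sets at -0.34 to -0.19, and the intervals of the others include 0.

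The other genes of hyaluronan metabolism and binding were taken as 5 lists with 58 genes, of which 54 were measured. By limma 2 of the 54 fell in cKO and 0 rose at an adjusted p under 0.05 over all genes. At an unadjusted p under 0.05, 6 lay lower and 3 higher. The share of all genes at that unadjusted level was not taken, so nothing is read from these counts. The share of all genes that passed was 2.76% in either direction. Of the 54 genes, 36 lay below 0, with a median log2 difference of -0.04, where 48.5% of all genes lay below 0. The 2 that fell were Itih5 and Adamts1, and neither makes, cuts or is a cell-surface receptor of hyaluronan.

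Itih5 encodes a heavy chain of the inter-alpha-trypsin inhibitor family, whose members can be coupled to hyaluronan. Its tested probe set (1441946_PM_at) read 7.23, 7.31, 7.44 and 7.59 in cKO and 8.27, 8.19, 7.99 and 8.02 in WT. The highest cKO array, replicate 4, lay below the lowest WT array, replicate 3. The fall was 1.65-fold (log2 -0.73, SE 0.09; limma adjusted p = 0.00225), from 8.12 ± 0.13 in WT to 7.39 ± 0.16 in cKO (SD, n = 4 each). A second probe set (1429159_PM_at) fell 2.05-fold, from 7.01 ± 0.17 to 5.98 ± 0.28 (limma adjusted p over all probe sets = 0.00310). Itih5 passed in all 8 fits without an array. With the mean of 21 immediate early genes as a covariate its log2 difference was -0.68 (limma adjusted p = 0.102, alternatives from 0.00157 to 0.102).

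The start region of Itih5 is printed beside that of Cd44 as that of the pathway gene with the lowest adjusted p (plus strand, chr2:10153293-10153532). It held 1 GC box, in capitals, 124 bases before the start, and 60% of its bases were G or C.
Itih5: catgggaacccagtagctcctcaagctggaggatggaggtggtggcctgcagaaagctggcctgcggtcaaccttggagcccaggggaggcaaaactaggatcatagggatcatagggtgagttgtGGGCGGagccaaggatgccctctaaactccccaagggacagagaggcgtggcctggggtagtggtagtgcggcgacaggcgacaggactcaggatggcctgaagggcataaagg

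Of 15 other binding matrix genes, Itih5 was the one that passed, and 10 were among the dimmest 40%. These included the link protein gene Hapln1, at 3.97 ± 0.13 in cKO and 4.02 ± 0.11 in WT, and Tnfaip6, whose enzyme transfers heavy chains to hyaluronan, at 3.60 ± 0.05 and 3.64 ± 0.09 (SD, n = 4 each). Both were chosen as examples for their role after their values were seen. The log2 differences of the other 14 genes ran from -0.11 to 0.03.

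Adamts1, which encodes a protease that cuts versican, fell 2.09-fold (log2 -1.06, SE 0.21; limma adjusted p = 0.0233). It read 7.02, 7.25, 6.66 and 7.11 in cKO and 8.28, 8.36, 8.28 and 7.37 in WT, so WT replicate 4 lay 0.12 above the highest cKO array and far from the other WT arrays. The call was kept in 3 of the 8 fits without an array. Without WT replicate 4 the log2 difference was -1.30, and with the immediate early covariate it was -0.37 (limma adjusted p = 0.498, alternatives from 0.000784 to 0.498). Of the 11 genes for versican and CD44 processing, the other 10 did not pass, among them the CD44 sheddase gene Adam10 at -0.16 and the splice regulator genes Esrp1 at 0.03 and Esrp2 at -0.10. These 3 were chosen as examples for their role after their values were seen. Adamts5, which encodes another protease that cuts such proteoglycans and was also named after its value was seen, differed by -0.28 (limma adjusted p = 0.101). It passed as lower in cKO with the probe sets of each gene averaged (-0.25), with the probe set of largest SD (-0.38), with array weights (-0.32) and without WT replicate 4 (-0.34).

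No gene of precursor sugar supply passed by limma, with 1 of 10 lower at an unadjusted p under 0.05. That was Uap1, which makes UDP-N-acetylglucosamine, at 8.12 ± 0.10 in cKO and 8.39 ± 0.22 in WT (SD, n = 4 each; limma adjusted p = 0.252). Its WT replicate 4 read 8.07, and without that array Uap1 passed with a log2 difference of -0.38. Nagk, which salvages N-acetylglucosamine, differed by 0.12 (limma adjusted p = 0.429). Ugdh, which makes UDP-glucuronic acid and is named here for that role, differed by 0.07 with a 95% interval of -0.08 to 0.21.

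None of 8 other breakdown genes passed by limma, with 1 higher at an unadjusted p under 0.05. That was the lysosomal hexosaminidase gene Hexa, at 9.70 ± 0.14 in cKO and 9.51 ± 0.10 in WT (SD, n = 4 each; limma adjusted p = 0.286). The glucuronidase gene Gusb differed by -0.12 (limma adjusted p = 0.506). The depolymerase genes Cemip and Cemip2, named for their role, differed by -0.01 and -0.07.

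Among 10 genes of other receptors and CD44 partners none passed by limma, with 2 higher and 1 lower at an unadjusted p under 0.05. The innate receptor gene Tlr4, which can respond to hyaluronan fragments, read 5.20 ± 0.11 in cKO and 4.98 ± 0.08 in WT (SD, n = 4 each; limma adjusted p = 0.140). This Tlr4 probe set was among the dimmest 40%, where signal and background are hard to separate. The radixin gene Rdx, one of the linkers between CD44 and actin, read 10.49 ± 0.09 and 10.30 ± 0.10 (limma adjusted p = 0.156). Both passed as higher in cKO when the probe sets of each gene were averaged, at log2 differences of 0.32 and 0.21. The lower gene was the endothelial receptor gene Lyve1, at -0.15.

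**Figure D3:**
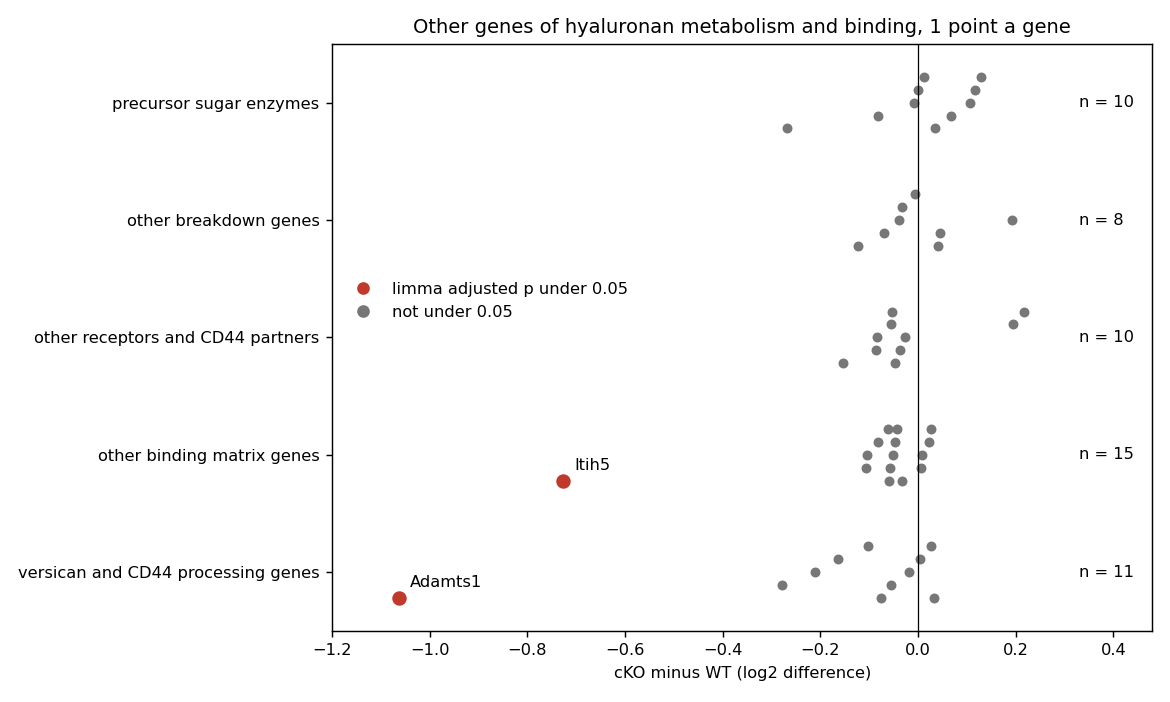
Log2 difference (cKO minus WT) of 54 further genes of hyaluronan metabolism and binding, 1 point a gene in 5 lists, spread vertically only for legibility, with genes at a limma adjusted p under 0.05 in red. Adamts1 at -1.06 and Itih5 at -0.73 stand apart from the other 52 genes, which lie between -0.28 and 0.22.

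Facts of the samples that bear on these values are few. The Ehmt2 probe set 1460692_PM_at, for the gene of G9a, read 5.54 to 6.44 in cKO and 8.89 to 9.29 in WT, while 1426888_PM_at read 8.39 to 8.43 and 8.40 to 8.42. The sources used here do not say which exons were deleted. Array medians lay within 5.87 to 5.95. Keratinocyte markers (6 genes) averaged 11.8 to 11.9 in every array and bulge markers (8 genes) 10.5 to 10.6. Of the 6 keratinocyte markers 4 lay above 0 and 2 below, the lowest being Cdh1 at -0.21 with overlapping groups. By limma 0 of the 6 passed. Within the bulge list, Nfatc1 was lower in every cKO array than in every WT array (log2 difference -0.35), and Krt15 was higher (0.10). Neither passed by limma. The difference between the 3′ and 5′ Gapdh control probe sets, a measure of RNA quality, was -0.10 to -0.07 in cKO and -0.08 to -0.05 in WT.

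The immediate early genes, induced quickly by growth factors and by the handling of tissue, were low in the cKO arrays and in 1 WT array. All 21 measured lay below 0, none passed by limma, and 16 were lower at an unadjusted p under 0.05, a count without a share over all genes beside it. Their mean deviation from the average of the 8 arrays was -0.23 to -0.08 in cKO, 0.21 to 0.34 in WT replicates 1 to 3, and -0.15 in WT replicate 4. Has2 differed from that pattern in WT replicate 4, where it was the second highest array, whereas Adamts1 was low there. With the mean of these genes as a covariate the log2 difference of Has2 was -1.36, beside -1.35 without it, and its adjusted p by limma lay nearer the threshold. That mean was low in every cKO array and high in WT replicates 1 to 3. Covariate and genotype therefore overlap in such fits, and the part of these genes in the Has2 difference was not tested.

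Fibroblasts also make hyaluronan, so their markers were set beside Has2. In bulk samples, fewer cells of a type and less RNA per cell cannot be told apart. Of 9 measured fibroblast markers 6 were among the dimmest 40%, with Lum at 3.75 to 4.08 and Pdgfra at 3.83 to 3.95 over the 8 arrays. Of the brighter markers, Postn read 11.76 to 11.85 in cKO and 11.78 to 11.87 in WT. That was far above every other fibroblast marker and above the bulge marker Sox9 (means 11.32 in cKO and 11.33 in WT). Which cells gave the Postn signal was not tested, so its level is no measure of fibroblast content. Dcn, not far above the dim level of 5.23, read 5.59 to 5.87 in cKO and 5.52 to 5.79 in WT. One marker fell, the collagen gene Col1a1, from 7.08 ± 0.11 in WT to 6.17 ± 0.19 in cKO (SD, n = 4 each; limma adjusted p = 0.00100), and the list mean was lower in every cKO array, at -0.085 to -0.0035 against 0.02 to 0.09. Without Col1a1, a split made after its value was seen, the other 8 markers, Postn among them, gave -0.04 to 0.05 in cKO and -0.04 to 0.06 in WT. None of 6 dermal papilla, 6 endothelial, 6 T cell, 5 mast cell and 5 melanocyte markers passed by limma; unadjusted p values under 0.05 were 2 lower, 1 higher, 0, 0 and 1 lower. The part of other cells in the Has2 difference was not tested.

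**Figure D4:**
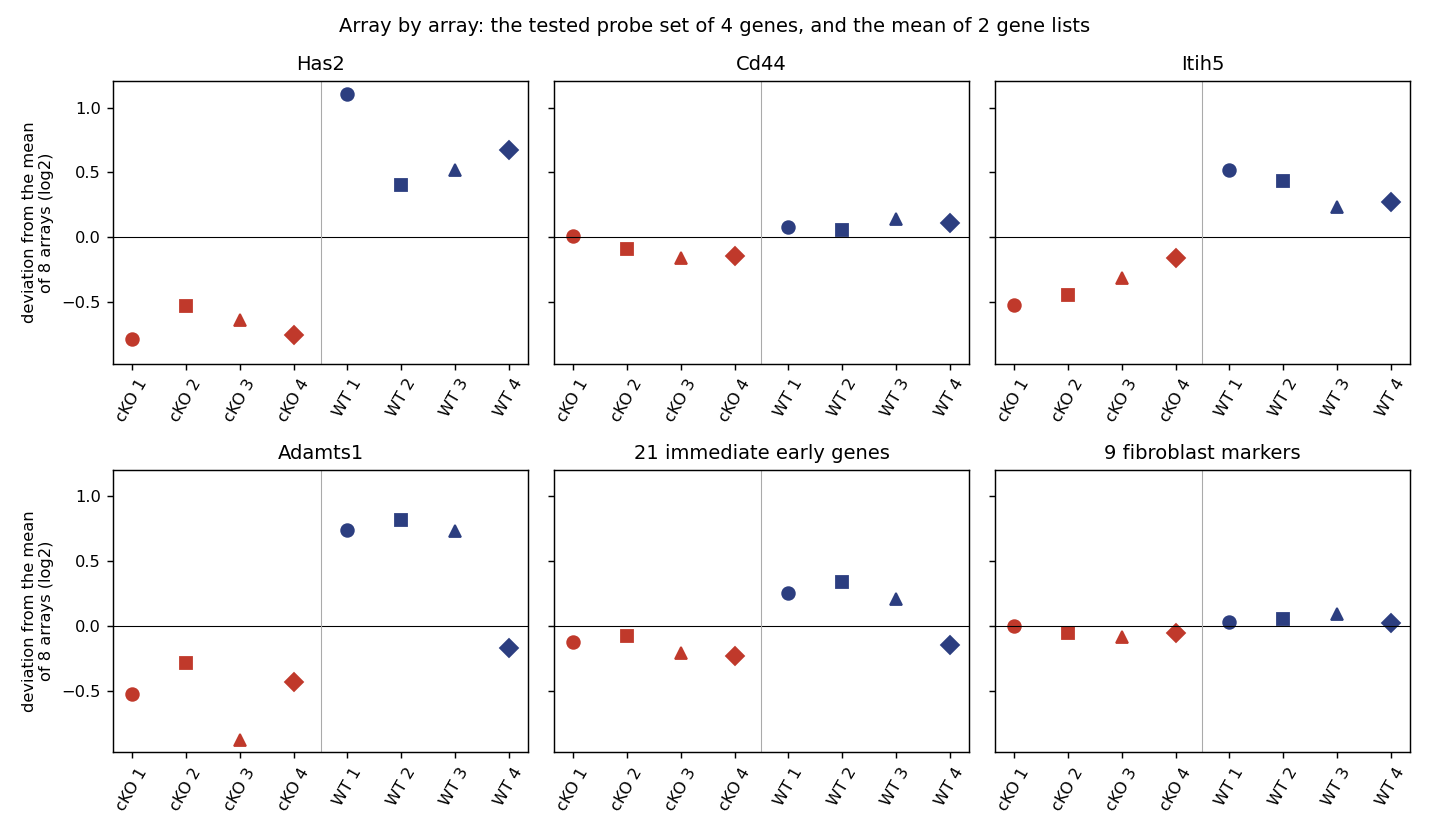
Deviation from the mean of the 8 arrays (log2) in each cKO (red) and WT (blue) array, for the tested probe sets of Has2, Cd44, Itih5 and Adamts1 and for the mean of 21 immediate early genes and of 9 fibroblast markers. WT replicate 4 lies with the other WT arrays in Has2, Cd44 and Itih5, but near the cKO arrays in Adamts1 and among them in the immediate early genes.

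Genes with an array profile most like that of Has2 were found as those with the smallest mean absolute difference over the 8 arrays, after centring each gene on its mean. They were the beta-defensin gene Defb6 (0.16), the homeobox gene Hoxd9 (0.19), the prostaglandin dehydrogenase gene Hpgd (0.20), the potassium channel gene Kcnma1 (0.24) and the serpin gene Serpina3n (0.26). All 5 were lower in every cKO array than in every WT array, as Has2 was, by -1.39 to -0.99 on the log2 scale. Nearest to Cd44 were Rinl, the glycolytic kinase gene Pgk1 and the cadherin gene Celsr2, at 0.02 to 0.03. These matches use the same arrays as the genotype difference and are a description.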

How the data were processed

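Affymetrix mouse arrays, 8 in all, were compared, 4 G9a cKO and 4 G9a WT, grouped by their titles. Per the labels' protocols, 25 ng of total RNA were amplified with 17 cycles and 8 µg of cDNA were biotinylated. The deposited values are log2 expression per probe set made by the authors with RMA, per the submitters' processing notes. The sources used here do not give its version. They ran from 3.09 to 13.1, and 0 columns of other samples were present.

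Of 45141 probe sets, 28898 had 1 gene symbol in the platform annotation, 551 several and 15692 none; 28689 probe sets had an Entrez identifier found in RefSeq's GRCm38.p6 table. Genes (17097) were tested through their brightest probe set on average, by limma 3.58.1 under R 4.3.3, with lmFit and a trended eBayes (two-sided). A further fit took all probe sets. P-values were adjusted by Benjamini-Hochberg over all genes, or over all probe sets in that fit, and the threshold was 0.05. Counts at an unadjusted p under 0.05 are given without the share over all genes, so nothing is read from them. The fit was tested on simulated data. Alternatives changed the scaling, the choice of probe set, the filter on dim probe sets, the limma settings, the threshold, the covariates (replicate block, immediate early mean) and the arrays, each left out in turn. Errors are SD over arrays or the limma standard error.

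Members and lists were chosen with earlier results of these data known. The naming rule covers the members, list genes past the threshold or else the 2 of lowest p, and the profiles nearest to Has2 (5 genes) or another member whose groups do not overlap (3 genes). Unnamed gene models were left out there. Some listed genes, among them Hyal4, Hapln3, Habp2, Zfp36 and Fbn1, were not analysed here. The labels give the genotype of the animal and a replicate number per array, with no animal identifier. Same-numbered arrays did not deviate together (correlations across genes of -0.53 to 0.03), so no pairing was used. Plots used matplotlib 3.10.9 and Python 3.11.15.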

Additional observations from a re-analysis of the deposited data

Results flagged for a closer look

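In groups of 4 arrays, an array was picked out where its gap to the nearest other array divided by the range of the group was above Dixon's 95% critical value. Of 66 groups tested 3 met this, close to the 1 in 20 that chance gives. WT replicate 4 read 7.37 for Adamts1, where the other WT arrays read 8.28 to 8.36. WT replicate 4 also read 8.07 for Uap1, where the others read 8.47 to 8.52. In cKO replicate 3, Hpgd read 8.02, where the other cKO arrays read 7.91 to 7.92. No member probe set was picked out.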

How the results depend on the processing

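Has2 kept its direction and its side of the threshold under all 17 alternatives, with log2 differences of -1.44 to -1.21. Since Has2 was chosen on these same arrays, that describes the effect of the settings only. Cd44 stayed below 0 in all 17, at -0.34 to -0.17, and passed the threshold in 6. The count of members lower in cKO was 1 in place of 2, through the loss of Cd44, with the probe set of largest SD, eBayes without trend, the replicate block and the immediate early covariate, and ran from 1 to 2 without an array. Member probe sets that passed ran from 2 to 5 without an array, where all arrays gave 3, with the highest count without cKO replicate 1. Over all genes 472 passed, 329 higher and 143 lower. With array weights 732 passed and 249 were lower, with the replicate block 268, 191 higher and 77 lower, and with the immediate early covariate 65, 44 higher and 21 lower. At an adjusted p under 0.1 these were 744, 497 and 247, and under 0.01 they were 203, 159 and 44. Without an array they ran from 258 to 796, 190 to 502 and 67 to 294. The highest count was without WT replicate 4 and the lowest total without cKO replicate 2. The replicate block ended no call other than that of Cd44 among the members, Itih5 and Adamts1. Pathway genes that passed as lower were 0 in place of 2 with the immediate early covariate and ran from 1 to 4 without an array, where Uap1 and Adamts5 joined without WT replicate 4. Those higher were 2 with the probe sets of each gene averaged and 1 with the probe set of largest SD, and 0 to 1 without an array, each including Tlr4. Signal over background limits Has3, 4 of the 5 Vcan probe sets and the tested Tlr4 probe set. It also limits the second Has2 probe set, whose cKO values all lay under the dim level of 5.23. The cKO values of the first Has2 probe set, 5.42 to 5.68, lay not far above that level. The small number of arrays limits every value. The cause of the changes with setting was not tested.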
